A study of Danio rerio with 16 samples.

Results

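Inner ear and hair cell genes are followed here through 16 whole-embryo RNA libraries of zebrafish (Danio rerio). The set is 10 genes, found by their symbols among the 32513 rows of the deposited expression table: pou4f3, atoh1a, atoh1b, otofa, otofb, myo7aa, tecta, otomp, stm and tmc2b. All 10 were present, each in a single row. The genes were picked by name with earlier results of these data in view, in particular the level of pou4f3 in exposed embryos at 48 hours post fertilization (hpf). The comparison of exposed with control embryos at 48 hpf is therefore given as a description, with no test of any of these genes.

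The study exposed embryos between 6 and 48 hpf to radiofrequency radiation (RFR) of the 5G telephony band, with a frequency of 3.5 GHz and a power of about 30 dBm. Unexposed embryos served as controls. Embryos of each kind were collected either at 48 hpf, when the exposure ended, or at 120 hpf, 72 h later, which gives 4 groups of 4 libraries. The labels give no strain, no number of embryos per library and no clutch, and each p-value below is relative to a spread between libraries that may be purely technical.

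Values are FPKM, fragment counts scaled to transcript length and library size, which allow levels to be compared between genes. Comparisons between libraries, above all between stages, also depend on the scaling, as given below. Libraries held 39603976 to 49232542 reads after the authors' filter, with a mapped share of 69.37 to 71.78% for embryos of 48 hpf and 66.19 to 67.58% for larvae of 120 hpf. A principal component analysis of 22813 genes, with the ear genes and all listed marker genes left out, put 83.0% of the variance on an axis that separated the stages. On it the 48 hpf controls lay between -100.9 and -90.69, RFR replicate 1 among them at -99.89, and RFR replicates 2 to 4 nearer to 120 hpf at -85.92, -76.49 and -86.34. The libraries at 120 hpf lay between 85.65 and 98.44.

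Hair cells are the mechanosensory cells of the inner ear and, in fish, of the lateral line neuromasts on the body surface. Proneural factors of the Atoh1 type start their differentiation, and Pou4f3 acts after them; loss of Pou4f3 in mice kills hair cells and causes deafness. A mature hair cell carries a bundle of actin-filled stereocilia with a transduction channel at the tips, and releases glutamate at ribbon synapses. The sensory patches are overlain by secreted matrices, including the otoliths, the calcium carbonate ear stones of fish. Several of these genes also work elsewhere: Atoh1 factors in the rhombic lip, from which cerebellar granule cells arise, and Pou4 factors in retinal ganglion cells. In whole embryos, fewer cells of a type and less RNA per cell cannot be told apart.

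pou4f3 (NCBI gene 30534), the hair cell differentiation factor, spread more widely at 48 hpf than the other 9 genes. Controls 1 to 4 held 1.22, 0.52, 1.19 and 1.68 FPKM, and RFR embryos 0.98, 2.80, 3.34 and 4.49 FPKM. RFR replicates 2 to 4 were above every control, while RFR replicate 1 lay inside the control range, so the groups overlapped. The means were 1.15 ± 0.478 FPKM in controls and 2.90 ± 1.46 FPKM in RFR (SD, n = 4 each), a ratio of 2.52 and a difference of 0.96 on the log2(FPKM + 0.5) scale. Over the 8 libraries of this stage the highest level was 8.64 times the lowest and the coefficient of variation (SD over mean) was 67.8%, against 7.42 to 48.35% for the other genes of the set. That spread includes the difference between exposed and control embryos, which was in view when the gene was picked. Within RFR embryos alone, tmc2b, a gene of low level, spread more widely relative to its mean (0.155 ± 0.0968 FPKM, SD, n = 4).

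The pou4f3 difference between the groups moved with single libraries. Without RFR replicate 1 it was 1.32 log2 units, without RFR replicate 4 it was 0.74 and without control replicate 2 it was 0.75. Replicates 1 to 3 of all groups share 1 raw read total, from which replicate 4 differs. Within replicates 1 to 3 the difference was 0.89 log2 units, and replicate 4 alone held 1.68 FPKM in the control and 4.49 in the RFR library. No member of the set was among the genes called in the fit over all genes at 48 hpf, where 1 of 23026 genes passed limma's test (0.00434%). That number of called genes became 389 without RFR replicate 1 and 3 without control replicate 2. At an unadjusted p under 0.05 there were 2180 genes, 3160 without RFR replicate 1 and 1819 without control replicate 2. Nothing is read from the members' count, since the genes were picked on this contrast.

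atoh1a and atoh1b, the proneural factors that start hair cell fate, lay on the opposite side at 48 hpf. For atoh1a the levels were 7.78, 11.63, 9.69 and 6.06 FPKM in controls and 9.75, 5.06, 3.98 and 4.54 FPKM in RFR embryos. For atoh1b they were 11.42, 14.04, 13.76 and 5.96 FPKM in controls and 11.94, 7.73, 5.06 and 5.07 FPKM in RFR embryos. RFR replicate 1 again stood with controls 1 to 3, and control replicate 4 was the lowest control for each gene. The differences of group means were -0.60 log2 units for atoh1a and -0.58 for atoh1b, with overlapping groups.

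The order of libraries was nearly reversed between pou4f3 and the atoh1 genes. Across the 8 libraries at 48 hpf, Pearson's r on the log2 scale was -0.95 for pou4f3 with atoh1a, -0.89 for pou4f3 with atoh1b and 0.94 between the atoh1 genes. These coefficients describe 8 libraries that fall into 2 exposure groups, and they carry no test. The level of pou4f3 relative to atoh1a was 0.0447 in control replicate 2, between 0.1005 and 0.2772 in the other controls and in RFR replicate 1, and 0.5534, 0.8392 and 0.989 in RFR replicates 2 to 4. At 120 hpf this ratio lay between 1.4304 and 3.1.

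**Figure D1:**
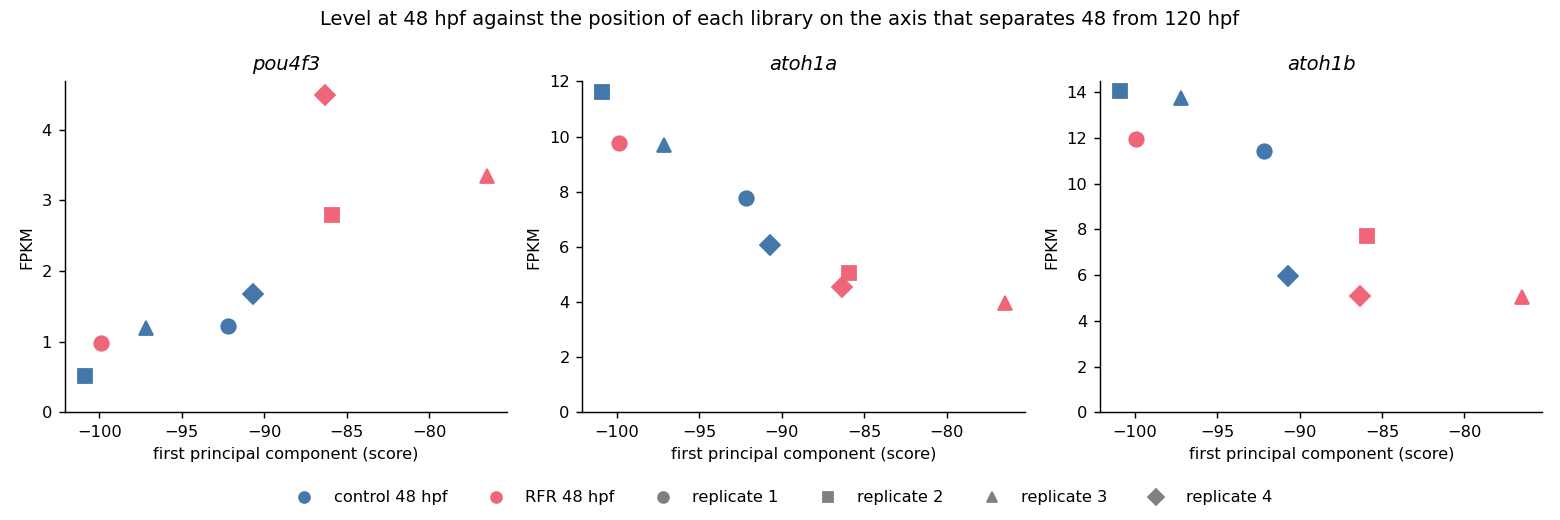
Level of pou4f3, atoh1a and atoh1b (FPKM, y axes from 0) in the 8 libraries at 48 hpf against their score on the first principal component, the axis that separates 48 from 120 hpf (less negative is nearer to 120 hpf). Marker colour gives the group and shape the replicate; RFR replicates 2 to 4 lie at the right with pou4f3 at 2.80 to 4.49 FPKM, and RFR replicate 1 lies at the left with the controls.

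Position on the stage axis moved with these levels: of the libraries at 48 hpf, those nearest to 120 hpf (RFR replicates 2 to 4) had the highest pou4f3 and the lowest atoh1a. Its part in the difference was not tested. Lists of markers of other cells that use the same factors had no called gene at 48 hpf. These lists, too, were chosen with earlier results of these data known, so their counts and sums only describe. Of 21 retinal ganglion cell genes, 18 had a higher mean in RFR embryos at 48 hpf, with a median difference of 0.27 log2 units beside 0.0426 for all genes. Their summed level was 549.9 to 616.3 FPKM in controls and 650.3 to 682.2 FPKM in RFR embryos, and no gene of the list was at 0 throughout a group. A large part of that sum was elavl3 alone, at means of 180.7 FPKM in controls and 189.3 FPKM in RFR embryos. Whole-embryo RNA does not show whether the summed RNA came from ganglion cells or from other neurons. In RFR replicate 1 that sum was 650.3 FPKM while pou4f3 stood at 0.98 FPKM. Of 20 cerebellar and rhombic lip genes, 16 had a higher mean in RFR embryos, with a median of 0.22, and their sum was 319.8 to 377.3 FPKM in controls and 412.9 to 466.6 FPKM in RFR embryos. Of 18 tested genes of cranial sensory neurons 13 were higher (median 0.09), with sums of 259.0 to 308.1 FPKM in controls and 297.2 to 322.8 FPKM in RFR embryos. Of 12 genes of Merkel cells and skin other than atoh1a, 9 were higher (median 0.08). The sums of the whole list, which holds atoh1a and several keratins, overlapped, at 9818 to 11480 FPKM in controls and 9442 to 11387 FPKM in RFR embryos. The part of these cells in the pou4f3 level was not tested. Among the ear and lateral line lists described below, the neuromast sums did not overlap at 48 hpf either. They were 424.0 to 454.3 FPKM in controls and 455.4 to 461.7 FPKM in RFR embryos. The sums of the other ear lists overlapped.

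stm, the most abundant gene of the set, encodes starmaker, which shapes the otolith crystals of zebrafish, and otomp encodes an otolith matrix protein. The 48 hpf controls held 35.57, 35.62, 35.01 and 52.65 FPKM of stm, and RFR embryos 39.74, 46.53, 44.58 and 54.58 FPKM. In each group replicate 4 was the highest library, and the RFR library exceeded its control only slightly there. The difference of group means was 0.23 log2 units. For otomp, controls held 9.34, 7.54, 8.55 and 11.74 FPKM, and RFR embryos 8.91, 11.38, 9.06 and 10.66 FPKM, with widely overlapping groups and a difference of 0.11 log2 units.

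The genes of mature hair cell function showed small differences at 48 hpf. Otoferlin, the calcium sensor for vesicle release at the hair cell synapse, has 2 genes in zebrafish. otofa was at 1.28, 1.28, 1.51 and 1.26 FPKM in controls and 1.38, 1.51, 1.5 and 1.37 FPKM in RFR embryos, and otofb at 1.77, 0.79, 1.5 and 1.2 FPKM and 0.75, 1.5, 1.68 and 1.42 FPKM. The groups overlapped for each copy, with differences of 0.08 and 0.02 log2 units. myo7aa, the unconventional myosin of the hair bundle, differed by -0.0047 log2 units, and tecta, which encodes the matrix protein alpha-tectorin, by 0.04. tmc2b, a subunit of the transduction channel, was low throughout this stage, at 0.06 to 0.31 FPKM over the 8 libraries, with a difference of -0.10. In all, 6 of the 10 genes had a positive and 4 a negative difference at 48 hpf, with a median of 0.03 log2 units beside 0.0426 over all genes, and the groups overlapped for all 10. Over all genes tested, the groups did not overlap for 4.27%.

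**Figure D2:**
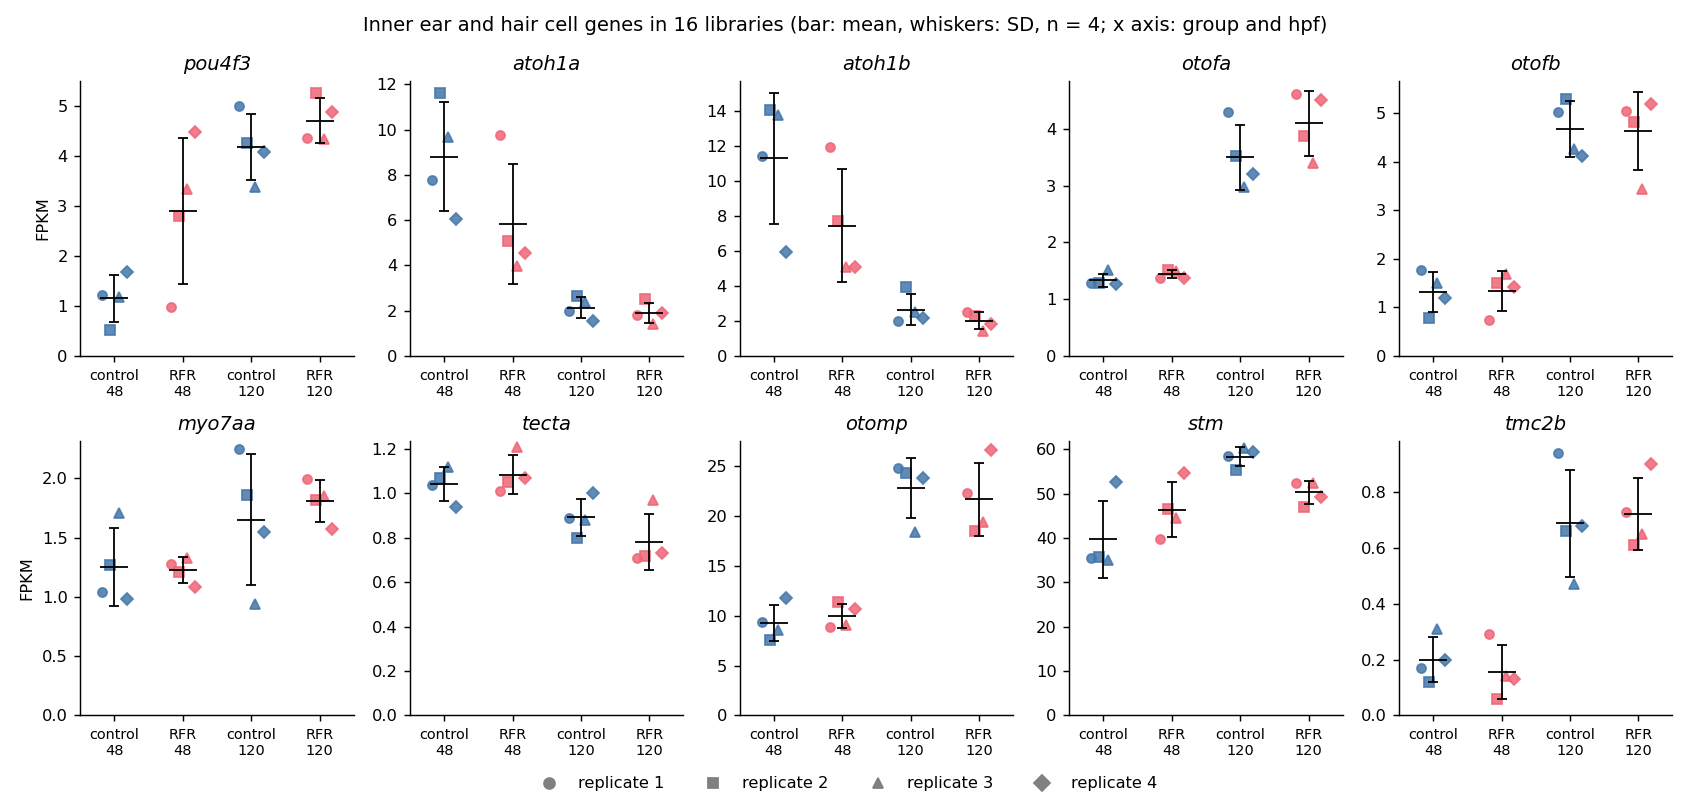
Level in FPKM of the 10 genes in every library (y axes from 0), by group and stage in hpf; marker shape gives the replicate, the horizontal bar the mean and whiskers the SD (n = 4). pou4f3 rises from 1.15 FPKM in 48 hpf controls to 4.19 FPKM at 120 hpf with RFR 48 hpf libraries spread between 0.98 and 4.49, and atoh1a and atoh1b run the other way.

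At 120 hpf, 72 h after the exposure ended, 0 of the 10 genes differed between RFR and control larvae in limma's test. Over all 23026 genes the count was also 0 (0% called), with 952 at an unadjusted p under 0.05. Control larvae held 5.01, 4.27, 3.39 and 4.09 FPKM of pou4f3, and RFR larvae 4.37, 5.27, 4.34 and 4.88 FPKM. These groups overlapped, with a log2 difference of 0.16 ± 0.291 (SE; limma adjusted p of 1). The spread of pou4f3 was far smaller than at 48 hpf, since the highest of the 8 libraries was 1.56 times the lowest. atoh1a was at 2.14 ± 0.472 FPKM in controls and 1.90 ± 0.455 in RFR larvae, and atoh1b at 2.65 ± 0.870 and 2.01 ± 0.498 (SD, n = 4). Their log2 differences were -0.14 ± 0.242 and -0.31 ± 0.287 (SE; limma adjusted p of 1 for each).

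stm was the gene of the set whose groups did not overlap at 120 hpf. Control larvae held 58.47, 55.35, 60.29 and 59.30 FPKM, and RFR larvae 52.48, 47.07, 52.48 and 49.20 FPKM. All 4 RFR libraries were below the lowest control. The log2 difference was -0.21 ± 0.117 (SE) and did not pass (limma adjusted p of 1, unadjusted 0.0875). Groups did not overlap for 2.11% of all genes tested. The other otolith gene, otomp, was at 22.8 ± 3.0 FPKM in controls and 21.7 ± 3.65 in RFR larvae (log2 difference -0.08 ± 0.142, SE).

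For the other genes the differences at 120 hpf were no larger than 0.20 log2 units. otofa was at 4.29, 3.52, 2.98 and 3.21 FPKM in controls and 4.61, 3.88, 3.39 and 4.51 FPKM in RFR larvae, a log2 difference of 0.20 ± 0.116 (SE; limma adjusted p of 1). otofb differed by -0.02 ± 0.193, myo7aa by 0.14 ± 0.174, tecta by -0.12 ± 0.109 and tmc2b by 0.05 ± 0.159 log2 units. The directions of otofb, myo7aa and tmc2b depended on single libraries. The difference between the exposure effects at 120 and 48 hpf passed limma's test for 0 of 23026 genes (0%), with 1575 at an unadjusted p under 0.05.

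Between 48 and 120 hpf in controls, the proneural factors fell, and the otoferlin genes, stm and otomp rose. 2 of the 10 genes are kept out of the count: pou4f3, for the reason below, and tmc2b, which reached the filter of 0.5 FPKM in no library at 48 hpf. Of the other 8, 6 changed in limma's test, 4 higher and 2 lower at 120 hpf, and myo7aa and tecta did not pass. Over all genes 66.1% were called, 38.3% higher and 27.9% lower, so the share of called genes in the set is near the background. The libraries of the 2 stages did not overlap for 8 of the 10 genes, pou4f3 and tmc2b included, and for 59.8% of all genes. These comparisons use the 48 hpf control libraries that also enter the contrast on which the genes were picked. The p-values given for genes of the set do not allow for that choice. For pou4f3 the stage difference is therefore only described: 1.15 ± 0.478 FPKM at 48 hpf and 4.19 ± 0.666 at 120 hpf (SD, n = 4), with no overlap and 1.55 log2 units apart.

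Scaling bears on the stage comparison. Over all genes the median stage difference in controls was 0.12 log2 units with the deposited values. It was -0.14 with quantile normalization, and 0.02 when libraries were scaled by their median ratio. Of the called genes 57.9%, 41.6% and 51.3% were higher at 120 hpf under these scalings.

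atoh1a fell from 8.79 ± 2.40 to 2.14 ± 0.472 FPKM in controls (SD, n = 4), a log2 difference of -1.80 ± 0.242 (SE; -1.92 relative to all genes; limma adjusted p = 6.07e-06). atoh1b fell from 11.3 ± 3.75 to 2.65 ± 0.870 FPKM, by -1.87 ± 0.287 log2 units (-1.996 relative to all genes; limma adjusted p = 2.47e-05). The highest level at 120 hpf was below the lowest at 48 hpf for each. Each fell under all 3 scalings.

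The otoferlin copies rose together. otofa went from 1.33 ± 0.119 to 3.50 ± 0.571 FPKM and otofb from 1.32 ± 0.420 to 4.68 ± 0.573 FPKM (SD, n = 4). The log2 differences were 1.12 ± 0.116 and 1.54 ± 0.193 (SE; limma adjusted p = 3.22e-07 and 2.82e-06). No library at 120 hpf overlapped with those at 48 hpf. After quantile normalization the differences were 0.69 and 1.14 log2 units. The sources used here do not say how reads shared between paralogs were counted.

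Of the otolith genes, otomp rose from 9.29 ± 1.79 to 22.8 ± 3.0 FPKM (log2 difference 1.26 ± 0.142, SE; limma adjusted p = 8.12e-07). stm rose from 39.7 ± 8.63 to 58.4 ± 2.14 FPKM (0.57 ± 0.117; limma adjusted p = 0.000417). Each rose under all 3 scalings. stm was the most abundant gene of the set in every group, above 94.9% of all rows of the table in 48 hpf controls and above 96.7% in 120 hpf controls.

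tmc2b was listed at 0.17, 0.12, 0.31 and 0.20 FPKM at 48 hpf and at 0.94, 0.66, 0.47 and 0.68 FPKM at 120 hpf in controls. The groups did not overlap, and the means were 0.76 log2 units apart, or 0.23 with quantile normalization. The gene passed the filter of 0.5 FPKM in 4 libraries only through larvae at 120 hpf, where it had to be high, so its stage difference is described without a test. The other 9 genes were at or above 0.5 FPKM in all 16 libraries.

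myo7aa was at 1.25 ± 0.331 and 1.65 ± 0.553 FPKM at 48 and 120 hpf in controls (SD, n = 4; log2 difference 0.28 ± 0.174, SE; limma adjusted p = 0.175). It passed without control 120 hpf replicate 3, which held 0.94 FPKM (0.46 log2 units, limma adjusted p = 0.0146), and its sign turned after quantile normalization (-0.22, limma adjusted p = 0.229). tecta was at 1.04 ± 0.0759 and 0.893 ± 0.0822 FPKM (-0.15 ± 0.109; limma adjusted p = 0.244), and after quantile normalization it fell by 0.68 log2 units (limma adjusted p = 4.75e-05).

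After RFR the stage comparison ran between the exposed groups, and 65.3% of all genes were called, 36.1% higher and 29.2% lower. Of the 8 genes other than pou4f3 and tmc2b, 7 changed, 4 higher and 3 lower. Libraries did not overlap for 8 of the 10 genes and for 58.5% of all genes. atoh1a was -1.34 ± 0.242 and atoh1b -1.60 ± 0.287 log2 units lower at 120 hpf (SE; limma adjusted p = 0.000134 and 0.000122). otofa rose by 1.24 ± 0.116, otofb by 1.5 ± 0.193 and otomp by 1.07 ± 0.142 log2 units (limma adjusted p = 9.97e-08, 3.89e-06 and 5.16e-06). tmc2b, again without a test, was at 0.155 ± 0.0968 and 0.723 ± 0.128 FPKM (SD, n = 4), 0.91 log2 units apart. For pou4f3, described only, the exposed means were 2.90 ± 1.46 and 4.72 ± 0.445 FPKM (SD, n = 4), 0.74 log2 units apart, and the groups overlapped.

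stm did not pass after RFR, at 46.4 ± 6.18 and 50.3 ± 2.66 FPKM (0.12 ± 0.117 log2 units, SE; limma adjusted p = 0.366). Within replicates 1 to 3 it did (0.22 log2 units, limma adjusted p = 0.0384). myo7aa (0.42 ± 0.174; limma adjusted p = 0.0447) and tecta (-0.31 ± 0.109; 0.0203) passed, unlike in controls. The myo7aa call was lost when most single RFR libraries were left out, and with median-ratio scaling (limma adjusted p = 0.0657). Its sign turned with quantile normalization (-0.0215). The tecta call was lost in fewer settings, among them replicates 1 to 3 alone (limma adjusted p = 0.0883). No gene was called for a difference between the stage effects of exposed and control embryos, which is the same contrast as the difference between the exposure effects above.

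**Figure D3:**
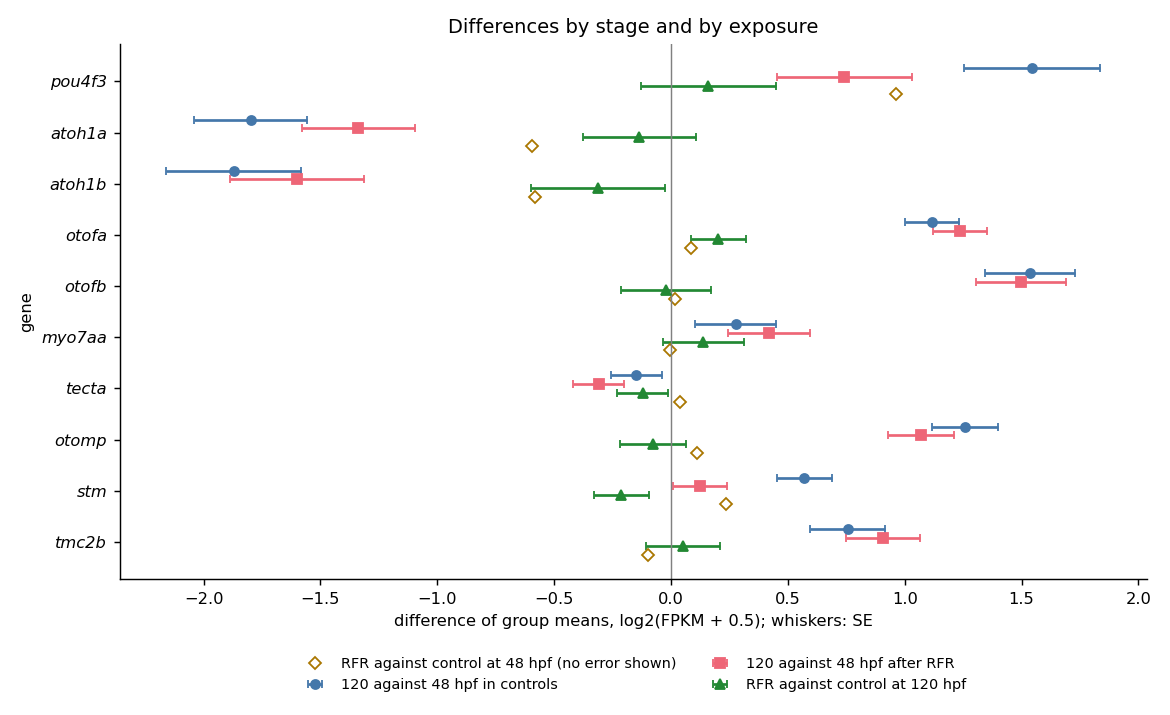
Differences of group means on the log2(FPKM + 0.5) scale (x axis) for each gene (y axis), by stage in controls and after RFR and by exposure at 120 and 48 hpf; whiskers are the SE of the fit over all genes, and none is drawn for the 48 hpf contrast on which the genes were picked. The stage differences of atoh1a and atoh1b lie left of 0, those of pou4f3, otofa, otofb, otomp and tmc2b right of it, and the exposure differences at 120 hpf lie between -0.31 and 0.20.

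Read as levels in FPKM, the order of the genes changed with stage. In 48 hpf controls stm led, followed by atoh1b, otomp and atoh1a, at means of 11.3, 9.29 and 8.79 FPKM whose ranges overlapped between neighbours. otofa, otofb, myo7aa, pou4f3 and tecta followed at 1.33 to 1.04 FPKM, also overlapping from neighbour to neighbour, and tmc2b was lowest at 0.200 FPKM, below the range of the next gene. In 120 hpf controls stm and otomp were apart from the rest. otofb, pou4f3, otofa, atoh1b, atoh1a, myo7aa, tecta and tmc2b followed from 4.68 down to 0.688 FPKM, with overlapping ranges between all neighbours. In RFR embryos at 48 hpf the mean of pou4f3 stood between those of atoh1a and otofa, where in controls it stood between myo7aa and tecta. The ranges of pou4f3 and these neighbours overlapped in each group, and RFR replicate 1 held only 0.98 FPKM of pou4f3.

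The genes with the pattern most like pou4f3 were sought among named genes whose mean level reached 1 FPKM. Over all 16 libraries the highest Pearson's r on the log2 scale were those of nfixb (0.97), npas3 (0.97), the lens crystallin crygmxl2 (0.97), birc7 (0.96) and crygm2d20 (0.96), out of 18291 genes. Over the 8 libraries at 48 hpf they were jun (0.99), col17a1a (0.99), si:ch211-127i16.2 (0.99), cnrip1b (0.99) and enox2 (0.99), out of 16706 genes. None was shared between these lists, and none belongs to the ear set. Libraries of a group share their stage and exposure, so these coefficients only describe. Within the set, the values over 16 libraries were 0.82 for otofb, 0.81 for otomp, 0.80 for stm and 0.76 for otofa. They were -0.91 for atoh1a and -0.90 for atoh1b. The remaining genes were less close, with 0.63 for tmc2b, 0.46 for myo7aa and -0.54 for tecta. Over the 8 libraries at 48 hpf, and with the atoh1 genes aside, the values ran from -0.44 (tmc2b) to 0.78 (stm).

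Wider lists of ear and lateral line genes were counted with the 10 genes of the set left out. Of 26 genes of the otic placode and ear patterning, 23 fell between 48 and 120 hpf in controls, 0 rose and 3 did not pass, with a median of -0.70 log2 units, beside 27.9% lower and a median of 0.12 over all genes. Examples are the neurogenic factor neurog1, at 40.0 ± 7.19 FPKM at 48 hpf and 3.62 FPKM at 120 hpf (-3.28 ± 0.161, SE; limma adjusted p = 3.35e-11), and the homeobox gene lmx1bb, at 11.1 and 4.24 FPKM (-1.30 ± 0.083; 8.85e-10). Of 13 other transcription factors used in hair cells, 11 fell, 1 rose and 1 did not pass, with a median of -0.72. The zinc finger genes insm1a and insm1b, which many neuroendocrine and neuronal precursors express, fell from 69.0 to 15.1 and from 43.3 to 14.1 FPKM. The riser was gfi1aa, a zinc finger repressor named after its values were seen, at 0.518 and 1.75 FPKM (1.15 log2 units, limma adjusted p = 1.05e-05).

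Effector genes ran the other way, in whole-embryo RNA that does not separate hair cells from other tissues. Of 33 tested genes of mechanotransduction and the hair bundle, 25 rose, 3 fell and 5 did not pass, with a median of 0.85 log2 units. With quantile normalization 18 were higher and 5 lower, and the median was 0.43. ush1c, which encodes the scaffold protein harmonin of the hair bundle, rose from 0.613 to 11.4 FPKM (3.41 ± 0.166 log2 units, SE; limma adjusted p = 2.99e-11). ankrd33aa, whose mammalian relative is known from photoreceptors, stood at 0.110 and 7.34 FPKM. The paralogs of tmc2b were low as well: tmc1 stood at 0.248 and 1.13 FPKM and tmc2a at 0.233 and 1.02 FPKM, both named after their values were seen. Of 44 matched genes of this list 11 did not pass the filter. A further 9 passed only through the later stage, ankrd33aa, tmc1 and tmc2a among them. These 9 stay in the counts and the median, which therefore lean to rises, and no count without them is given. Of 21 genes of the hair cell synapse and calcium handling, 18 rose, 1 fell and 2 did not pass, with a median of 1.16. Over all genes 38.3% were higher. The calcium-binding protein gene cabp2a rose from 0.665 to 10.8 FPKM. cabp5b, of the same family, stood at 0.238 and 16.8 FPKM and is 1 of 2 genes of the list that passed the filter only through 120 hpf.

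The matrix and otolith list had no common direction: 10 of 22 tested genes rose, 5 fell and 7 did not pass, with a median of 0.13 log2 units. Over all genes 38.3% were higher and 27.9% lower. In the list, 4 genes passed the filter only through 120 hpf, with no library at 48 hpf at 0.5 FPKM, and 1 only through 48 hpf. With quantile normalization 6 genes of the list were higher and 8 lower (median -0.08), and with median-ratio scaling 9 and 8. rgs9a, a regulator of G protein signalling best known from photoreceptors, stood at 0.285 and 26.8 FPKM. Its mean was below 0.5 FPKM in each 48 hpf group (0.21 in RFR embryos), so it passed the filter largely through 120 hpf and is described only. otos, which encodes otospiralin, rose from 1.91 to 53.2 FPKM. A pair of genes of early otolith formation, named after their values were seen, were lower at 120 hpf while stm and otomp rose. oc90, which encodes otoconin 90, stood at 3.84 and 0.295 FPKM (-2.44 log2 units). Its mean at 120 hpf was below the filter's 0.5 FPKM, so the difference is described without a test. otop1, which encodes the proton channel otopetrin, fell from 5.65 to 1.85 FPKM (-1.38 log2 units, limma adjusted p = 1.88e-05). Of 23 neuromast and lateral line genes 8 rose, 9 fell and 6 did not pass, among them krt15, a keratin of epithelia, from 33.5 to 283.7 FPKM and lfng, a modifier of Notch receptors, from 53.6 to 15.6 FPKM. The neuromast counts became 4 higher and 10 lower with quantile normalization, and 5 and 12 with median-ratio scaling. In this list 2 genes passed the filter only through 120 hpf, which leans its counts to rises. Many of these genes are also active outside the ear, and the lists do not separate the sources.

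**Figure D4:**
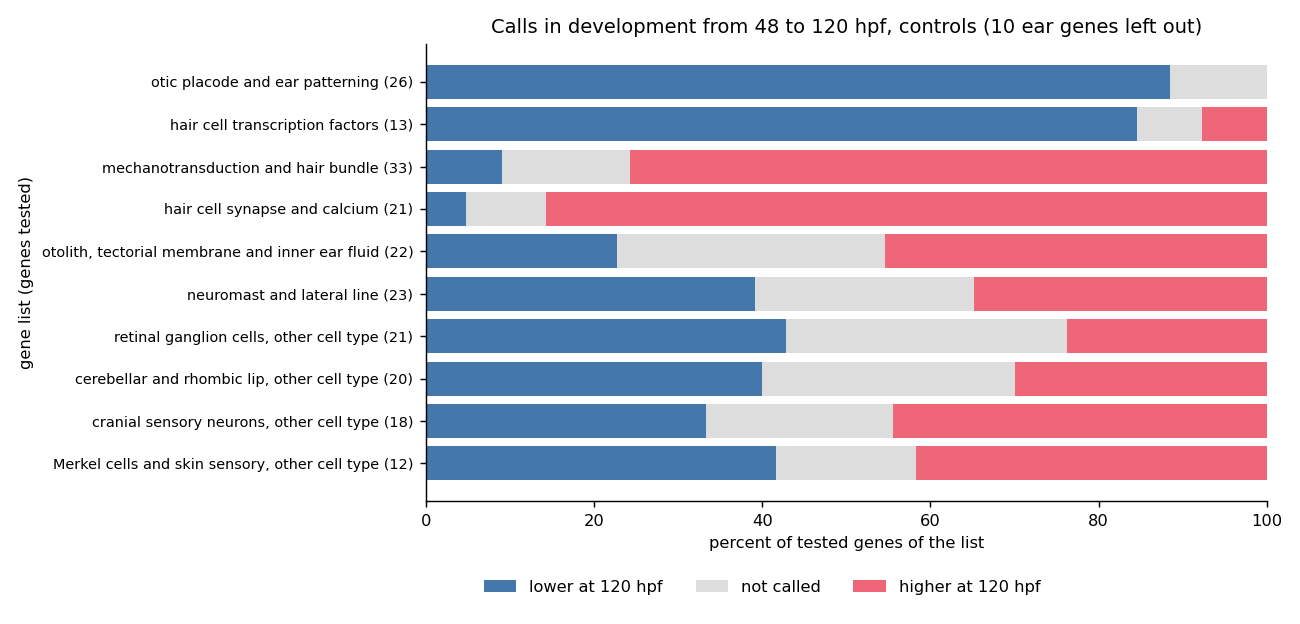
Percent of the tested genes of each list (x axis) that were lower, not called or higher at 120 than at 48 hpf in controls by limma's adjusted p, the 10 ear genes of the set left out, with the number of genes tested after each name (y axis). Placode genes and transcription factors are mostly lower (23 of 26 and 11 of 13), and hair bundle and synapse genes mostly higher (25 of 33 and 18 of 21; 18 and 15 with quantile normalization). Of these, 9 of the 33 bundle genes and 2 of the 21 synapse genes tested passed the filter only through 120 hpf, so the bars lean to rises. The same holds for 4 otolith, 3 cerebellar, 2 neuromast and 1 cranial gene. List genes that the text describes without a test stay in these counts.

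The counts for lists of other cells stand beside 38.3% higher and 27.9% lower over all genes. In controls 5 of 21 retinal ganglion cell genes rose and 9 fell. Among the latter were elavl3 and atoh7. elavl3, whose RNA cannot be assigned to ganglion cells in whole embryos, fell from 180.7 to 84.0 FPKM. atoh7, the factor that starts ganglion cell fate, fell from 8.75 to 1.62 FPKM. Of 20 cerebellar genes 6 rose and 8 fell. gabra6a, a GABA receptor subunit, stood at 0.0750 and 5.83 FPKM and cbln12, of the cerebellin family, at 0.133 and 5.16 FPKM; they are among 3 genes of this list that passed the filter only through 120 hpf. Of 18 cranial sensory neuron genes 8 rose and 6 fell, among the latter neurog1 (above) and neurod4, a neuronal differentiation factor, from 88.4 to 21.3 FPKM. The cranial counts turned to 5 higher and 7 lower with quantile normalization (median -0.23 against 0.17 as deposited) and to 6 and 7 with median-ratio scaling. In the cranial list 1 gene passed the filter only through 120 hpf. Of 12 Merkel cell and skin genes other than atoh1a 5 rose and 5 fell, with the keratin krt1-19d rising from 7.08 to 159.9 FPKM. The synaptic vesicle gene sv2ba stood at 0.280 and 11.1 FPKM. Its mean was below the filter's threshold in each 48 hpf group (0.315 FPKM in RFR embryos). It passed the filter largely through 120 hpf and, like gabra6a and cbln12, is described only. For the other genes named in these sentences, the rises and falls passed limma's test over all genes.

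Under exposure, and again without the genes of the set, none of the 10 lists had a gene called at 48 hpf or at 120 hpf, where 0 genes were called in all. At 120 hpf the placode list had 5 positive and 21 negative differences (median -0.06 log2 units), the bundle list 14 and 19 (-0.02) and the synapse list 10 and 11 (-0.0088), beside a median of -0.0035 over all genes. At 48 hpf the same lists had 20 and 6 (0.11), 22 and 11 (0.05) and 14 and 7 (0.13), beside 0.0426. The remaining lists, those of other cells included, also had more negative than positive differences at 120 hpf. Retinal ganglion cell genes had 4 positive and 17 negative (-0.07), and cerebellar genes 5 and 15 (-0.05). The otolith list had 8 and 14, and the neuromast list 9 and 14.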

How the data were processed

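Per the labels, RNA of whole zebrafish embryos was read on the DNBseq-G50 platform. Expression values are FPKM per gene and library, with 2 decimals, per the file headers. Build GRCz11 and the tools Bowtie2, HISAT2 and DESeq2 appear in the submitters' processing notes, without version or role, and the program that made the FPKM is not stated. Counts of reads and genes per library and the percent of reads mapped come from quality tables the authors deposited. Counts of reads per gene were not used here, so no interval for counting error is given.

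The 23026 genes that reached 0.5 FPKM in 4 or more libraries entered 1 fit with limma 3.58.1 (R 4.3.3). It modelled 4 group means of log2(FPKM + 0.5), with trended eBayes variances and 12 residual degrees of freedom. This scale understates changes of low genes. Tests were two-sided, with Benjamini-Hochberg adjustment over all genes tested; a gene was called at an adjusted p under 0.05. The fit was tested on simulated data.

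The members, the 10 gene lists and the settings were chosen with earlier results of these data known. Of 240 list entries, 217 matched the table's symbols, 17 matched by gene ID through current symbols of a RefSeq table (assembly GRCz12tu, names only) and 6 stayed unmatched. From each list the text names the 2 genes of smallest p in control development among called genes that reached a mean of 1 FPKM in some group, members aside, and others only where it says so.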

Additional observations from a re-analysis of the deposited data

Results flagged for a closer look

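In 40 sets of 4 libraries (10 genes in 4 groups), 4 held a library far from the other 3 by Dixon's test, and chance flags about 1 in 20 such sets. For stm in 48 hpf controls it was replicate 4, at 52.65 FPKM. For otofa in 48 hpf controls it was replicate 3, at 1.51 FPKM. For otomp in 120 hpf controls it was replicate 3, at 18.34 FPKM. For tecta in RFR larvae at 120 hpf it was replicate 3, at 0.97 FPKM.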

How the results depend on the processing

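At 48 hpf the 1 called gene became 3 with a pseudocount of 0.1, 2 without a filter, 0 with a filter of 1 FPKM (2096 at an unadjusted p under 0.05), 8 with library weights and 0 with only the groups compared (1986); leaving out single libraries gave 1 to 389, the highest without RFR replicate 1 and 3 without control replicate 2. At 120 hpf 0 became 4 without a filter and 1 with a replicate block, and 0 when any library was left out. For the difference of exposure effects 0 became 1 with a pseudocount of 0.1, with quantile normalization and within replicates 1 to 3, and 0 to 1 with a library left out (1 without control 48 hpf replicate 4 or RFR 48 hpf replicate 1). The total number of genes called in development stayed within 1.5 times; list counts that did not are given with the lists.

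The pou4f3 difference at 48 hpf lay between 0.74 and 1.32 without single libraries; it was 1.18 and 0.80 with pseudocounts of 0.1 and 1, 0.83 with quantile normalization and 0.92 with median-ratio scaling. At 120 hpf otofb turned to 0.0288 with library weights, and without single libraries it ran from -0.0776 to 0.0992 (positive without control replicates 1 or 2 or RFR replicate 3). Without single libraries myo7aa ran from -0.0415 (control replicate 3 left out) to 0.2696 and tmc2b from -0.0423 to 0.1477 (negative without control replicate 3 or RFR replicate 4); within replicates 1 to 3 tmc2b was at -0.0151. In development, quantile normalization turned myo7aa to -0.22 in controls and -0.0215 after RFR. The causes were not tested.

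Replicate numbers are shared by the groups, but libraries of the same number did not deviate together throughout (r from -0.111 to 0.308 between control and RFR of a stage). Replicates 1 and 2 did not correlate best with their own number. Replicate 4 did in each pair of groups compared. Its r was 0.308 and 0.273 between control and RFR at 48 and 120 hpf. Between stages it was 0.174 in controls and 0.185 after RFR. Replicate 3 did so only between control and RFR (0.152 at 48 and 0.276 at 120 hpf). With the replicate block, 15357 genes were called in control development and 15152 after RFR; of the set, 0 were called at 120 hpf, as without it, and after RFR myo7aa was lost (limma adjusted p = 0.0551).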
